A study of Mus musculus with 28 samples.

Results

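The genes described here take part in the handling of calcium and magnesium by the kidney, most of them in its distal tubule. They are the channel genes Trpv5 and Trpm6, the cytosolic calcium binders Calb1, S100g and Pvalb, the exchanger gene Slc8a1, the pump genes Atp2b1 and Atp2b4, and the receptor gene Casr. They were chosen by gene name, with earlier results of these data known. All 9 were found among the 14845 genes of the deposited table and among the 13495 genes tested. Their mRNA was counted in 28 bulk RNA-seq libraries made from total RNA of male mouse kidneys. The db/db Unx groups were db/db mice with 1 kidney removed (Unx, uninephrectomized), 12 libraries at 26 weeks of age and 5 at 35 weeks. They were compared with intact db/m mice, 5 libraries at 26 weeks and 6 at 35 weeks. The db/db mouse has no signalling form of the leptin receptor and becomes obese and diabetic, and db/m is its lean control. The study used the operated db/db animals to model severe kidney disease in diabetes. Since all db/db animals and no db/m animals had lost a kidney, genotype and surgery cannot be told apart, and the labels give no genetic background beyond these names.

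In the late distal convoluted tubule and the connecting tubule, calcium enters the cell from the urine through the channel TRPV5. It is carried through the cytosol by the calbindins and leaves on the blood side through the sodium-calcium exchanger NCX1 and the plasma membrane calcium pumps. Magnesium enters upstream, in the distal convoluted tubule, through TRPM6. Parathyroid hormone and active vitamin D raise calcium uptake along this route.

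The deposited value of a gene is its estimated read count multiplied by 1 scaling factor per library, here called scaled reads. It is not divided by gene length, so a value compares 1 gene between libraries and not 1 gene with another. Estimated depth lay between 21.8 and 30.8 M (mega) reads per library, with group means of 24.8 ± 1.84 M in db/db Unx and 24.6 ± 2.13 M in db/m at 26 weeks (SD, n = 12 and 5), and of 27.5 ± 3.41 M in db/db Unx and 25.01 ± 3.29 M in db/m at 35 weeks (SD, n = 5 and 6). Tests used limma on log2(value + 1), adjusted by Benjamini-Hochberg over all 13495 genes, and genes below 0.05 are referred to as called. A log2 change on this scale understates the change of genes with few scaled reads. On the second principal component, which held 9.17% of the variance, db/db Unx 35-week replicates 3, 5 and 6 lay outside the range of the other 25 libraries. The summed leukocyte markers reached 371 scaled reads in a db/db Unx library at 35 weeks, against at most 104 in db/m at that age. The kidney's proximal tubule and distal tubule markers were all measured (8 of 8 and 14 of 14). The markers of neighbouring tissues stayed low, with sums of at most 2.81 scaled reads for the 3 skeletal muscle markers analysed and at most 4.23 for the 2 adrenal markers.

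The entry channel, both calbindins, the exchanger, 1 of the pumps and the magnesium channel were higher in db/db Unx kidneys at both ages. At 26 weeks 6 of the 9 genes were called higher and 0 lower, where 34.9% of all genes tested were called and 17.2% of all genes tested were called higher. The same 6 were called higher and 0 lower at 35 weeks, where 32.3% of all genes were called and 15.9% were called higher. Of all genes tested, 9.99% were called higher at both ages. The median log2 change of the 9 genes was 0.84 at 26 weeks and 0.83 at 35 weeks, beside 0.02 and 0.01 for all genes. Pvalb, Atp2b1 and Casr were not called at either age. Leaving out db/db Unx replicates 3, 5 and 6 of 35 weeks left only replicates 1 and 2 in that group. On the spread shared over all groups, the 6 genes were again called higher at that age. Their log2 changes then lay between 0.81 for Slc8a1 and 1.38 for Trpv5. Over all genes, 2408 were called in that setting, against 4357 with all libraries. In bulk tissue a larger number of cells of a type and more RNA per cell cannot be told apart.

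**Figure D1:**
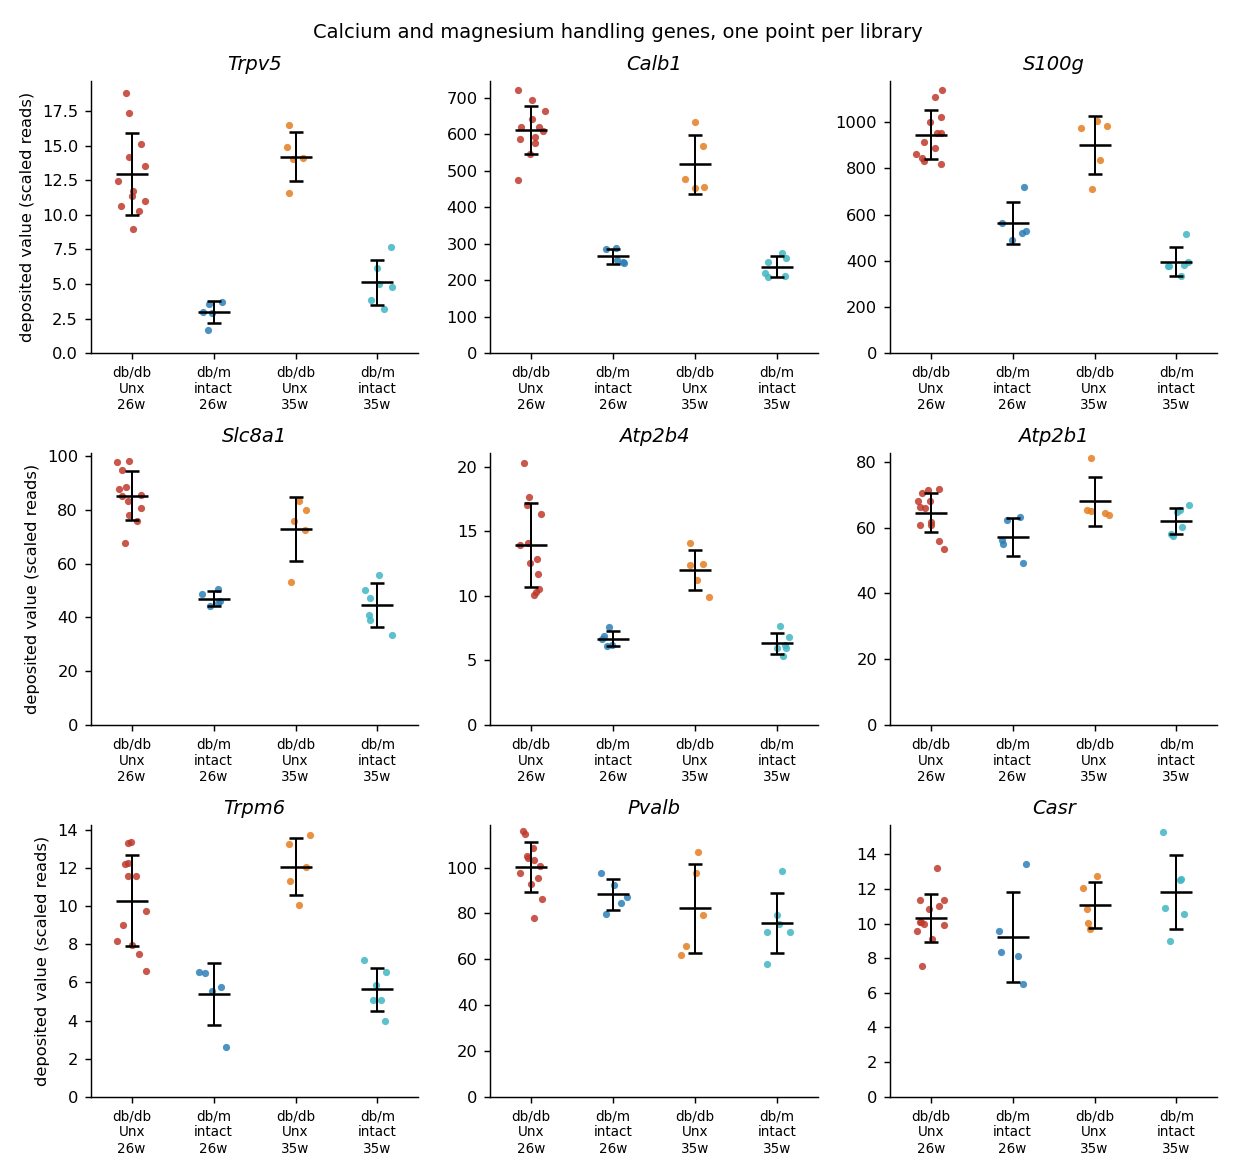
Scaled reads of the 9 genes (y axis, linear and starting at 0) in each library, by group (x axis). Points are libraries, the long bar is the group mean and the whiskers are 1 SD. Trpv5, Calb1 and S100g of db/db Unx lie above all db/m libraries of the same age, while Atp2b1, Pvalb and Casr overlap.

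Trpv5 (ENSMUSG00000036899), the apical calcium channel, lies at chr6:41652173-41680769 on the minus strand of GRCm38. At 26 weeks its lowest, median and highest values were 8.95, 12.1 and 18.8 scaled reads in db/db Unx, against 3.51, 3.68, 1.66, 2.89 and 2.97 in the 5 db/m libraries. At 35 weeks the db/db Unx libraries held 14.01, 14.9, 16.5, 14.1 and 11.6 scaled reads, against a lowest, median and highest of 3.19, 4.90 and 7.67 in db/m. Every db/db Unx library stood above every db/m library of its age, and above those of the other age too. Means were 12.96 ± 2.97 in db/db Unx and 2.94 ± 0.79 in db/m at 26 weeks (SD, n = 12 and 5), and 14.2 ± 1.77 in db/db Unx and 5.11 ± 1.61 in db/m at 35 weeks (SD, n = 5 and 6). The log2 change was 1.82 ± 0.16 at 26 weeks (SE, limma adjusted p = 5.61e-12) and 1.35 ± 0.18 at 35 weeks (limma adjusted p = 1.28e-07). These were the largest changes among the 9 genes at each age. They rest on 48 to 546 estimated reads per library. TRPV6 is the closest relative of TRPV5, and reads of such a pair can be split between them. Trpv6 was scarcer, at 3.47 ± 1.61 scaled reads in db/db Unx and 0.80 ± 0.86 in db/m at 26 weeks (SD, n = 12 and 5), and was also called higher (log2 change 1.37, limma adjusted p = 4.2e-06). At 35 weeks Trpv6 averaged 3.03 ± 0.70 in db/db Unx and 0.64 ± 0.22 in db/m (SD, n = 5 and 6, log2 change 1.29, limma adjusted p = 8.16e-05). The Trpv6 groups overlapped at 26 weeks, and its lowest value in any library was 0.04 scaled reads. Over the 8 alternative settings that were not single leave-outs, its log2 change at 26 weeks ran from 0.54 to 2.50 (limma adjusted p at most 0.000442).

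The stretch before the start of Trpv5 is shown because this gene moved most, and because it and S100g are the members whose windows hold the letters TATAAA. It is given from RefSeq on GRCm38.p6, chr6:41680761-41680973, minus strand, 5′ to 3′, and ends with that motif in capitals. The motif begins at position -43 from the RefSeq start that defines the window, and at base 4 of the gene as GENCODE annotates it.
Trpv5: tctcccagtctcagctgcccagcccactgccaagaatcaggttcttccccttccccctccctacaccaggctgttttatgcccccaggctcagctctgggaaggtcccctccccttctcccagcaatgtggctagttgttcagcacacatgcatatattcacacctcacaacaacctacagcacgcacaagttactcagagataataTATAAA
TATAAA, searched on both strands, is the core of the TATA box, a sequence at which transcription complexes assemble. It occurred in 13.6% of all 32851 RefSeq windows, which run from 250 bases before to 50 after a start. A match of letters is a description and not evidence of a site in use.

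Calb1 (ENSMUSG00000028222, chr4:15881264-15908064, plus strand) encodes calbindin-D28k, the cytosolic buffer and shuttle of the calcium-transporting cells. At 26 weeks its lowest, median and highest values were 475, 614 and 720.0 scaled reads in db/db Unx, against 256, 247, 288, 284 and 248 in db/m. At 35 weeks the db/db Unx libraries held 453, 633, 567.5, 477 and 454 scaled reads, against a lowest, median and highest of 208, 235 and 274 in db/m. The groups were well apart, with the lowest db/db Unx library of either age above the highest db/m library of either age. Means were 612 ± 66.0 in db/db Unx and 265 ± 19.7 in db/m at 26 weeks (SD, n = 12 and 5). Means at 35 weeks were 517 ± 80.2 in db/db Unx and 237 ± 28.2 in db/m (SD, n = 5 and 6). The change was 2.30-fold at 26 weeks (log2 1.20 ± 0.08, SE, limma adjusted p = 1.96e-13) and 2.17-fold at 35 weeks (log2 1.12 ± 0.09, limma adjusted p = 2.67e-11).

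S100g (ENSMUSG00000040808, chrX:162961992-162964599, minus strand) encodes calbindin-D9k, a smaller calcium binder known as a vitamin D target of the intestine and kidney. At 26 weeks its lowest, median and highest values were 820.0, 934 and 1138 scaled reads in db/db Unx, against 519, 527, 562, 490.1 and 721 in db/m. At 35 weeks the db/db Unx libraries held 709, 1006, 976, 836 and 981 scaled reads, against a lowest, median and highest of 333, 380.2 and 517 in db/m. The groups did not overlap at either age, and db/m replicate 1 stood highest in its group at 35 weeks. Means were 945 ± 106 in db/db Unx and 564 ± 91.6 in db/m at 26 weeks (SD, n = 12 and 5). Means at 35 weeks were 902 ± 126 in db/db Unx and 396 ± 62.4 in db/m (SD, n = 5 and 6). The change was 1.68-fold at 26 weeks (log2 0.75 ± 0.10, SE, limma adjusted p = 4.11e-07) and 2.27-fold at 35 weeks (log2 1.18 ± 0.11, limma adjusted p = 1.25e-09). The difference between the ages in this change was 0.43 ± 0.15 on the log2 scale and did not pass (limma adjusted p = 0.172, unadjusted p = 0.00634).

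The S100g stretch is shown for the same motif and because S100g alone among the members with a window holds more than 1 half-site, the letters that nuclear receptors such as the vitamin D receptor recognise in pairs. It is given from RefSeq on GRCm38.p6, chrX:162964594-162964849, minus strand, 5′ to 3′. The capitals mark AGGTCA, then GGTTCA and AGGTCA on the opposite strand (read here as TGAACC and TGACCT), and TATAAA, whose first base is base 1 of the gene in GENCODE.
S100g: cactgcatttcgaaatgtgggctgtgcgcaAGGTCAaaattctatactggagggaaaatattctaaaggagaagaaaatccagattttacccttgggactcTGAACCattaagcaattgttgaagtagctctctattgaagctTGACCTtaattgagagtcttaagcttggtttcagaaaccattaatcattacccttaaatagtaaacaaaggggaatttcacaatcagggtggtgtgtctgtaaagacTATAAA
The half-sites begin at positions -220, -149 and -107 from the start, counted on the gene's strand. AGGTCA, searched on both strands, occurred in 16.3% of all windows and at least 2 copies in 1.81%, GGTTCA in 10.4%, and GGGTCA in 13.7%, with Trpm6 the member that holds the last. Of the paired forms, that of vitamin D contains the single AGGTCA. The paired vitamin D form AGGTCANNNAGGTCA was in 0.00609% of all windows, the paired oestrogen form GGTCANNNTGACC in 0.0700% and the cyclic AMP form TGACGTCA in 1.79%, and none of the 8 members with a window held any of these 3. Windows were given for 8 of the 9 genes, and that of Calb1 was not analysed here.

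Slc8a1 (ENSMUSG00000054640, chr17:81373105-81738377, minus strand) encodes the sodium-calcium exchanger NCX1, the main exit of calcium from these cells, and is also strongly expressed in muscle. At 26 weeks its lowest, median and highest values were 67.7, 85.3 and 97.9 scaled reads in db/db Unx, against 48.8, 45.5, 44.03, 45.9 and 50.7 in db/m. At 35 weeks the db/db Unx libraries held 75.9, 80.04, 83.3, 72.55 and 53.03 scaled reads, against a lowest, median and highest of 33.6, 44.1 and 55.9 in db/m. The 26-week groups did not overlap, while at 35 weeks db/db Unx replicate 6 fell inside the db/m range. Means were 85.2 ± 9.03 in db/db Unx and 46.98 ± 2.70 in db/m at 26 weeks (SD, n = 12 and 5), and 72.96 ± 11.9 in db/db Unx and 44.5 ± 8.13 in db/m at 35 weeks (SD, n = 5 and 6). The change was 1.79-fold at 26 weeks (log2 0.84 ± 0.09, SE, limma adjusted p = 4.36e-09) and 1.63-fold at 35 weeks (log2 0.70 ± 0.11, limma adjusted p = 2.23e-06). Of 6 smooth muscle markers, 3 were called higher at 26 weeks and 1 at 35 weeks, with sums of 130.3 to 166 scaled reads in db/db Unx and 106 to 140.2 in db/m at 26 weeks, and of 146 to 193 in db/db Unx and 115 to 141 in db/m at 35 weeks. Their part in the Slc8a1 result was not tested. Exons of Slc8a1 overlap AC122399.1 and Gm11096 on the opposite strand, and use of strand in counting is not given in the sources used here.

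Of the 2 plasma membrane calcium pumps, Atp2b4 rose at both ages and Atp2b1 was not called. Atp2b4 (ENSMUSG00000026463, chr1:133699457-133801041, minus strand) encodes PMCA4. At 26 weeks its lowest, median and highest values were 10.04, 13.4 and 20.3 scaled reads in db/db Unx, against 6.19, 7.58, 6.62, 6.88 and 6.15 in db/m. The db/db Unx libraries of 35 weeks held 12.4, 14.1, 11.2, 9.90 and 12.5 scaled reads, against a lowest, median and highest of 5.34, 6.08 and 7.67 in db/m. All db/db Unx libraries exceeded all db/m libraries. The log2 change was 0.93 ± 0.13 at 26 weeks (SE, limma adjusted p = 2.72e-07) and 0.83 ± 0.15 at 35 weeks (limma adjusted p = 2.42e-05). Exons of Atp2b4 overlap the microRNA gene Mir6903 on the same strand. The part of smooth muscle, whose markers are given above, in the Atp2b4 result was not tested.

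Atp2b1 (ENSMUSG00000019943, chr10:98914406-99026143, plus strand) encodes PMCA1, the pump form expressed in most cell types. It averaged 64.6 ± 6.00 scaled reads in db/db Unx and 57.2 ± 5.76 in db/m at 26 weeks (SD, n = 12 and 5), and 67.98 ± 7.39 in db/db Unx and 62.1 ± 4.03 in db/m at 35 weeks (SD, n = 5 and 6). The groups overlapped at both ages, and db/db Unx replicate 1 at 81.2 stood apart from the other 4 libraries of its group at 35 weeks. The log2 change was 0.17 at 26 weeks (95% interval 0.03 to 0.31, limma adjusted p = 0.0527) and 0.13 at 35 weeks (95% interval -0.04 to 0.29, limma adjusted p = 0.243). Leaving out single libraries moved the adjusted p at 26 weeks between 0.0219 and 0.223, and the gene passed without db/m replicate 1 or 4 or db/db Unx replicate 4, 5, 6 or 11. With all libraries kept, Atp2b1 also passed at 26 weeks with quantile normalization (log2 change 0.20, limma adjusted p = 0.0207). It did so too with a filter of at least 5 in at least 5 libraries (log2 change 0.17, limma adjusted p = 0.0473). Per kilobase of exon, the level of Atp2b4 relative to Atp2b1 was 0.270 ± 0.0665 in db/db Unx and 0.147 ± 0.0263 in db/m at 26 weeks (SD, n = 12 and 5), and 0.221 ± 0.0343 in db/db Unx and 0.127 ± 0.0163 in db/m at 35 weeks (SD, n = 5 and 6). This ratio was chosen after the values were seen and is a description. The pumps are close paralogs, so reads can be split between them.

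Trpm6 (ENSMUSG00000024727, chr19:18749983-18892511, plus strand), the magnesium channel of the distal convoluted tubule, was higher in db/db Unx. At 26 weeks its lowest, median and highest values were 6.62, 10.7 and 13.4 scaled reads in db/db Unx, against 5.75, 5.54, 6.51, 2.60 and 6.56 in db/m. The db/db Unx libraries of 35 weeks held 11.3, 13.7, 13.3, 12.05 and 10.06 scaled reads, against a lowest, median and highest of 3.98, 5.48 and 7.17 in db/m. At 26 weeks the lowest db/db Unx library stood only just above the highest db/m library, and at 35 weeks the groups were further apart. The log2 change was 0.84 ± 0.16 at 26 weeks (SE, limma adjusted p = 6.02e-05) and 0.99 ± 0.18 at 35 weeks (limma adjusted p = 3.95e-05). The counts behind it were 62 to 439 estimated reads per library.

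Pvalb (ENSMUSG00000005716, chr15:78191114-78206400, minus strand) encodes parvalbumin, which marks the early distal convoluted tubule, the segment ahead of the calbindin-rich cells. It averaged 100.2 ± 11.0 scaled reads in db/db Unx and 88.3 ± 6.91 in db/m at 26 weeks (SD, n = 12 and 5), and 82.2 ± 19.5 in db/db Unx and 75.8 ± 13.2 in db/m at 35 weeks (SD, n = 5 and 6). The groups overlapped at both ages. The log2 change was 0.18 at 26 weeks (95% interval -0.04 to 0.39, limma adjusted p = 0.210) and 0.10 at 35 weeks (95% interval -0.14 to 0.35, limma adjusted p = 0.569). Pvalb is also known from fast skeletal muscle, whose markers were near 0 in these libraries as given above.

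Casr (ENSMUSG00000051980, chr16:36493696-36562141, minus strand) encodes the calcium-sensing receptor, in the kidney best known from the thick ascending limb and also the receptor of the parathyroid gland. It averaged 10.3 ± 1.401 scaled reads in db/db Unx and 9.22 ± 2.60 in db/m at 26 weeks (SD, n = 12 and 5), and 11.1 ± 1.31 in db/db Unx and 11.8 ± 2.16 in db/m at 35 weeks (SD, n = 5 and 6). The log2 change was 0.17 at 26 weeks (95% interval -0.08 to 0.43, limma adjusted p = 0.295) and -0.08 at 35 weeks (95% interval -0.36 to 0.21, limma adjusted p = 0.738). Of 6 thick ascending limb markers, 5 were called higher at 26 weeks, and 1 higher and 1 lower at 35 weeks. The parathyroid markers Pth and Gcm2 were not analysed here.

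**Figure D2:**
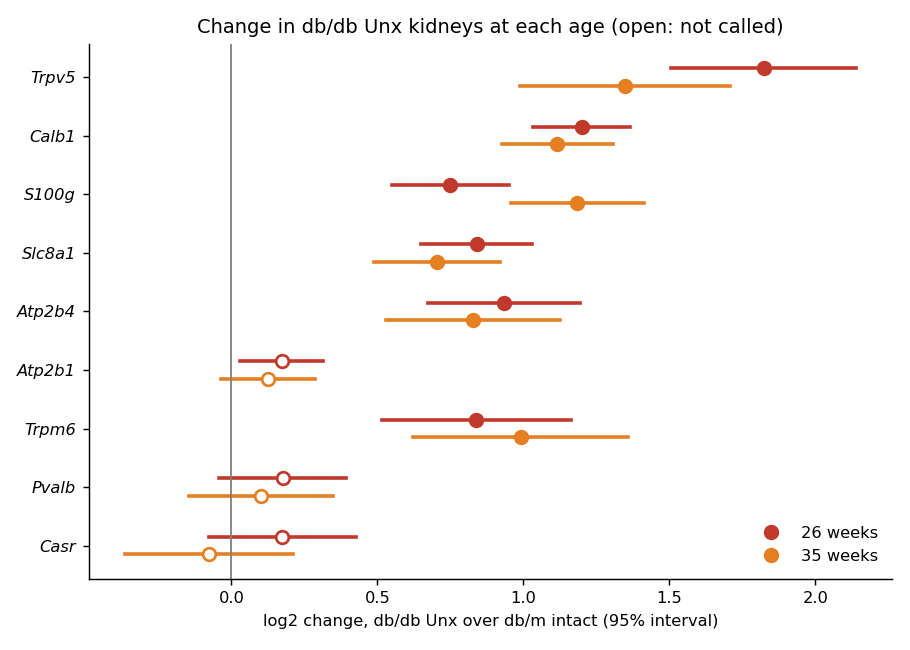
Log2 change of each gene in db/db Unx over db/m (x axis) with its 95% interval, at 26 weeks (red) and 35 weeks (orange). Filled points were called and open points were not. The 6 called genes have intervals above 0 at both ages, from 0.75 for S100g to 1.82 for Trpv5 at 26 weeks and from 0.70 for Slc8a1 to 1.35 for Trpv5 at 35 weeks.

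At 26 weeks 6 of the 9 genes had groups that did not overlap, all higher in db/db Unx, where 12.8% of all genes tested did not overlap and 5.11% did so as higher. At 35 weeks 5 of 9 did, where 18.1% of all genes did not overlap and 7.84% did so as higher. With the 4 group means of each gene put in order, the step between the lower db/db Unx and the higher db/m group had no overlap for Calb1, Trpv5, Slc8a1 and Atp2b4. For Slc8a1 this holds for those neighbours, db/db Unx at 35 weeks and db/m at 26 weeks, and not for the groups of 35 weeks. For S100g the 35-week db/db Unx libraries overlapped the 26-week db/m libraries, through db/m replicate 5 at 721 scaled reads. For Trpm6 the corresponding neighbours also overlapped, and all other neighbouring groups of the 9 genes did.

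Between genes, levels were compared as scaled reads per kilobase of exon, a level and not a change. S100g came first in every group, at 1969 ± 221 in db/db Unx and 1175 ± 191 in db/m at 26 weeks (SD, n = 12 and 5). Calb1 at 126 ± 13.6 stood before Pvalb at 96.2 ± 10.6 in db/db Unx at 26 weeks (SD, n = 12), whereas in db/m Pvalb at 84.8 ± 6.64 stood before Calb1 at 54.6 ± 4.06 (SD, n = 5). The order at 35 weeks was alike, with Calb1 at 107 ± 16.5 and Pvalb at 78.98 ± 18.8 in db/db Unx (SD, n = 5), against Calb1 at 48.9 ± 5.81 and Pvalb at 72.8 ± 12.7 in db/m (SD, n = 6). Trpm6 and Atp2b4 were the lowest in every group, Trpm6 at 1.33 and Atp2b4 at 1.14 per kilobase in db/db Unx at 26 weeks. Trpv5 ranked 6 in db/db Unx and 7 in db/m at 26 weeks, and 5 in db/db Unx and 7 in db/m at 35 weeks. The length used was the union of all annotated exons, which can be longer than the transcript present.

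Most marker genes of the distal convoluted and connecting tubule were also higher in db/db Unx. Of 8 distal convoluted tubule markers 6 were called higher and 0 lower at each age, with median log2 changes of 0.37 at 26 weeks and 0.45 at 35 weeks. Of 6 connecting tubule markers 5 were called higher at 26 weeks and 4 at 35 weeks, with medians of 0.44 and 0.39 and 0 lower. Kcnj10, a potassium channel gene of the distal convoluted tubule, rose by 0.82 on the log2 scale at 35 weeks, beside 0.70 for Slc8a1. Slc12a3, the thiazide-sensitive sodium chloride cotransporter of the distal convoluted tubule, averaged 603 ± 36.5 scaled reads in db/db Unx and 443 ± 34.7 in db/m at 26 weeks (SD, n = 12 and 5, log2 change 0.45, limma adjusted p = 2.82e-06). Of 8 proximal tubule markers, 6 were called lower and 0 higher at each age, with summed levels of 10539 to 12638 scaled reads in db/db Unx and 15785 to 18554 in db/m at 26 weeks, and of 9101 to 10869 in db/db Unx and 15373 to 17806 in db/m at 35 weeks. The part of the proximal tubule in the values of the 9 genes was not tested.

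Each gene was next expressed relative to the mean log2 level of the 14 distal markers in the same library. That marker mean was itself higher, at 6.58 ± 0.08 in db/db Unx and 6.21 ± 0.09 in db/m at 26 weeks (SD, n = 12 and 5, exact permutation p = 0.000162, two-sided, the smallest possible), and 6.55 ± 0.14 in db/db Unx and 6.15 ± 0.03 in db/m at 35 weeks (SD, n = 5 and 6, exact permutation p = 0.00216, the smallest possible). Relative to it, Trpv5 was higher by 1.45 log2 units at 26 weeks and by 0.95 at 35 weeks (exact permutation, adjusted p = 0.00145 and 0.00779 over the 18 tests of 9 genes at 2 ages). Calb1 was higher by 0.83 and 0.72 (exact permutation, adjusted p = 0.00145 and 0.00779). S100g was higher by 0.38 and 0.79 (exact permutation, adjusted p = 0.00779 at both ages). Atp2b4 was higher by 0.57 and 0.43 (exact permutation, adjusted p = 0.00218 and 0.0177), and Trpm6 by 0.47 and 0.59 (exact permutation, adjusted p = 0.0191 and 0.00779). Without db/m replicate 4 of 26 weeks, which held the lowest value, the Trpm6 difference at 26 weeks was 0.27 and was not called (exact permutation, adjusted p = 0.0897). Slc8a1 was higher by 0.47 at 26 weeks (exact permutation, adjusted p = 0.00194). At 35 weeks it was 0.31 and was not called (exact permutation, adjusted p = 0.0609), but passed without db/m replicate 1 (adjusted p = 0.0408) or without db/db Unx replicate 6 (adjusted p = 0.0367).

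The remaining 3 genes gave negative differences against the distal markers at both ages, and 3 of these 6 differences were called. Each difference is the gene's own change less that of the marker mean, which rose by 0.37 at 26 weeks and 0.40 at 35 weeks. A gene with no change of its own therefore comes out negative. The share of all genes called in this way was not computed, and by their own change these 3 genes were not called. Casr was lower relative to the distal markers by 0.47 log2 units at 35 weeks, with no overlap between groups (exact permutation, adjusted p = 0.00779), and its difference of -0.19 at 26 weeks was not called (adjusted p = 0.133). Without db/m replicate 2 of 26 weeks that difference was -0.32 and was called (exact permutation, adjusted p = 0.0139), and without db/m replicate 3 it was -0.08 (adjusted p = 0.471). Casr is best known from the thick ascending limb, so the markers of other segments are an indirect measure for it. Pvalb differed by -0.19 at 26 weeks (exact permutation, adjusted p = 0.0313) and by -0.30 at 35 weeks (adjusted p = 0.0963). The Pvalb call at 26 weeks was lost without any 1 of db/m replicates 1, 3, 4 and 5, with the adjusted p rising to at most 0.102. With the distal convoluted tubule markers alone, those of the segment it marks, the Pvalb difference at 26 weeks was -0.16 and was not called (exact permutation, adjusted p = 0.0546). At 35 weeks Pvalb passed without db/m replicate 5 (exact permutation, adjusted p = 0.0238). Atp2b1 differed by -0.20 at 26 weeks (exact permutation, adjusted p = 0.0609) and by -0.27 at 35 weeks (adjusted p = 0.0473). The 26-week difference passed without db/m replicate 2 or db/db Unx replicate 8, or with the connecting tubule markers alone (exact permutation, adjusted p = 0.0139, 0.0377 and 0.0368). The 35-week call was lost in 10 of the 11 single-library leave-outs, all but that of db/db Unx replicate 1, with an adjusted p of up to 0.0964. It was also lost with the connecting tubule markers alone (exact permutation, adjusted p = 0.103).

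**Figure D3:**
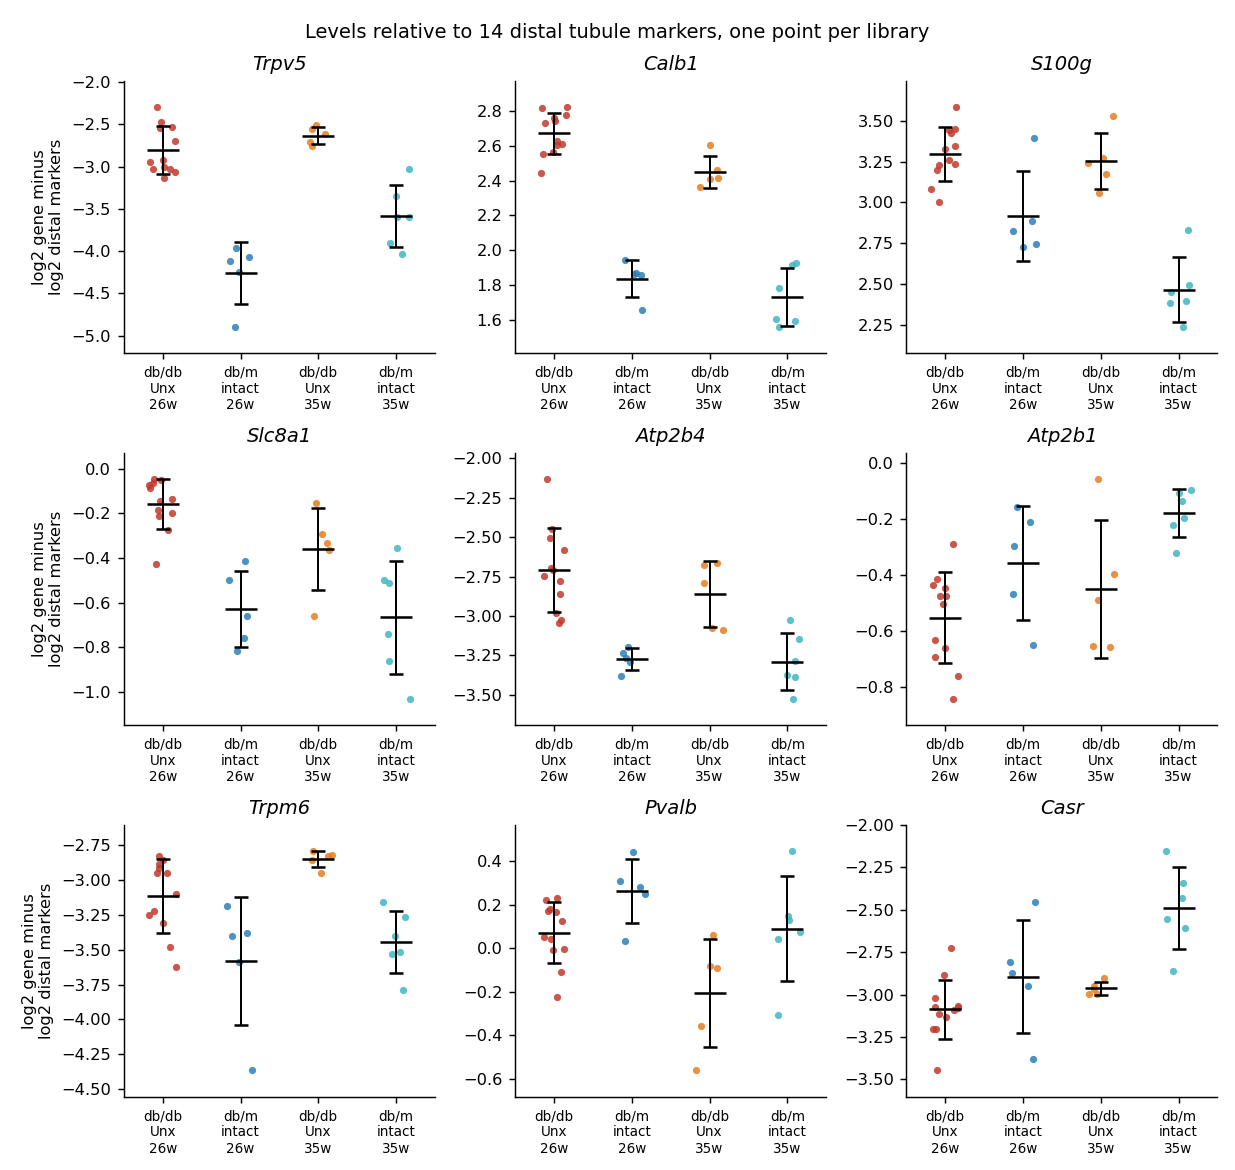
Log2 level of each gene minus the mean log2 level of 14 distal convoluted and connecting tubule markers in the same library (y axis, log2 units, not starting at 0), by group (x axis). Points are libraries, bars are means and whiskers are 1 SD. On this relative scale Trpv5 and Calb1 lie higher in db/db Unx at both ages. Casr, whose own change was not called, lies lower on it in db/db Unx at 35 weeks with no overlap.

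Age was examined within each kind of mouse, comparing 35 with 26 weeks. No batch is recorded in the labels, and one that went with age could not be separated from it: the 2 cannot be told apart. In db/db Unx, 1 of the 9 genes was called, where 11.3% of all genes tested were called and 6.14% as lower. That was Calb1, lower at 35 weeks (517 ± 80.2 against 612 ± 66.0 at 26 weeks, SD, n = 5 and 12, log2 change -0.25 ± 0.08, SE, limma adjusted p = 0.0454). This call was lost in 12 of the 17 single-library leave-outs, without db/db Unx 26-week replicates 1 to 6, 8, 10 or 12 or 35-week replicates 1, 5 or 6, with a limma adjusted p of up to 0.171. Without replicates 3, 5 and 6 of 35 weeks together the log2 change was -0.18 (limma adjusted p = 0.774). Pvalb in the same libraries differed by -0.31 ± 0.11 on the log2 scale (SE, limma adjusted p = 0.0578), and passed without db/db Unx 26-week replicate 11 or 35-week replicate 2 or 3 (limma adjusted p = 0.0156 to 0.0295). The other 7 genes ranged from -0.23 for Slc8a1 to 0.24 for Trpm6 on that scale, with no call.

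In db/m, 2 of the 9 genes were called, where 7.4% of all genes tested were called, 2.73% as higher and 4.68% as lower. S100g was lower at 35 weeks (396 ± 62.4 against 564 ± 91.6 scaled reads at 26 weeks, SD, n = 6 and 5, log2 change -0.51 ± 0.11, SE, limma adjusted p = 0.00434). It remained called in all single-library leave-outs, with a highest adjusted p of 0.0220. Trpv5 was higher at 35 weeks (5.11 ± 1.61 against 2.94 ± 0.79 scaled reads at 26 weeks, SD, n = 6 and 5, log2 change 0.62 ± 0.18, SE, limma adjusted p = 0.0257). The Trpv5 call was lost without db/m replicate 3 or 5 of 26 weeks or db/m replicate 1 or 3 of 35 weeks, with an adjusted p of up to 0.101. The other 7 genes ranged from -0.23 for Pvalb to 0.35 for Casr, with no call, although Casr passed without db/m replicate 3 of 26 weeks (log2 change 0.48, limma adjusted p = 0.0290). No difference between the ages in the change of db/db Unx over db/m passed in limma for the 9 genes (0 called, 1 at an unadjusted p below 0.05, where 0.548% of all genes were called), and the intervals were wide, from -0.95 to 0.00 on the log2 scale for Trpv5.

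Variation from library to library was followed in the 12 db/db Unx libraries of 26 weeks, the one group large enough. Of 36 pairs of the 9 genes, 29 had a positive Pearson r and 7 a negative one, with a median of 0.35 and a range from -0.37 to 0.71. No pair passed adjustment over the 36 (0 called, with 3 at an unadjusted permutation p below 0.05 by Pearson and 5 by Spearman). The highest was Calb1 with Slc8a1, at r = 0.71 (permutation p = 0.00964, adjusted p = 0.296, n = 12) and Spearman rho = 0.76 (permutation p = 0.00616). Without the 2 libraries farthest from the Calb1 median, r was 0.73. Slc8a1 with Pvalb had r = 0.67 (permutation p = 0.0164) and rho = 0.47, and r fell to 0.27 without the 2 farthest libraries, so it rests on those. The points of 1 library share its tissue composition and its scaling factor.

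Over all 28 libraries, with each group's mean removed, the genes whose log2 levels most resembled each member were listed as a description. They are the 3 with the highest r among all other genes tested. The r that such a choice gives by chance was not tested. For Calb1 they were Pcolce (r = 0.73), Klk1 (r = 0.69) and Slc12a3 (r = 0.67), of which Klk1, tissue kallikrein, is a connecting tubule marker. For Slc8a1 they were Tenm4 (r = 0.72), Gm5148 (r = 0.71) and Lrba (r = 0.67), and among the members Pvalb came closest to it, at rank 4 (r = 0.66). For S100g they were Cryzl1, Pdcd5 and Zfp395, with r between 0.66 and 0.68, and for Trpv5 they were Cux1, Atp6ap1 and Zfp451, between 0.66 and 0.67. For Trpm6 they were Dusp26, Otud7b and Fen1, between 0.69 and 0.72, where Dusp26 had a median of only 0.69 scaled reads. For Pvalb they were Sys1, Abhd14a and Smim20, between 0.73 and 0.78. For Atp2b1 they were Ywhae, Gas2 and Pigf, between 0.70 and 0.78, for Atp2b4 Magi2, D3Ertd254e and Swsap1, between 0.69 and 0.75, and for Casr Tpd52l2, Cept1 and Zbtb17, between 0.66 and 0.69.

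Of a list of other calcium and magnesium transport genes, 25 of 31 were tested. At 26 weeks 9 were called higher and 7 lower in db/db Unx, and at 35 weeks 9 higher and 5 lower, with a median log2 change of 0.12 at each age. Rragd, a lysosomal GTPase in which mutations cause human magnesium wasting, rose at both ages (log2 change 0.73, limma adjusted p = 3.4e-11, at 26 weeks and 0.54, limma adjusted p = 4.54e-07, at 35 weeks). Egf, the precursor of the growth factor that stimulates TRPM6, fell at both ages. It averaged 443 ± 59.6 scaled reads in db/db Unx and 655 ± 72.0 in db/m at 26 weeks (SD, n = 12 and 5), and 469.9 ± 79.9 in db/db Unx and 855 ± 103 in db/m at 35 weeks (SD, n = 5 and 6), with log2 changes of -0.57 (limma adjusted p = 3.81e-05) and -0.87 (limma adjusted p = 4.99e-07). Trpm7, the relative of Trpm6 found in all cells, was not called at 26 weeks (log2 change 0.08, limma adjusted p = 0.339) and rose at 35 weeks (log2 change 0.24, limma adjusted p = 0.0105), a call lost without db/db Unx replicates 3, 5 and 6 (limma adjusted p = 0.347). Ptp4a1, a phosphatase that binds the CNNM magnesium transport proteins, rose by 0.44 and 0.38 on the log2 scale. Cldn10, a claudin of the tight junction, fell by 0.43 and 0.61. Cldn16 and Cldn19 encode a pair of claudins through which magnesium passes between cells of the thick ascending limb. Cldn16 rose by 0.48 and 0.75, while Cldn19 rose by 0.59 at 26 weeks and was not called at 35 weeks (log2 change 0.16, limma adjusted p = 0.4997).

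Of a list of hormone, receptor and regulator genes, 20 of 22 were tested. At 26 weeks 7 were called higher and 6 lower, with a median log2 change of 0.07, and at 35 weeks 6 were called higher and 4 lower, with a median of -0.02. Cyp27b1, the enzyme that makes active vitamin D, had the largest change of the list, a log2 change of 4.31 at 26 weeks (385 ± 116 scaled reads in db/db Unx and 17.9 ± 2.47 in db/m, SD, n = 12 and 5, limma adjusted p = 2.07e-13). At 35 weeks its log2 change was 3.57 (144 ± 66.6 in db/db Unx and 10.8 ± 3.89 in db/m, SD, n = 5 and 6, limma adjusted p = 1.21e-10). Cyp24a1, which breaks vitamin D down, was not called, with log2 changes of -0.72 ± 0.46 at 26 weeks (SE, limma adjusted p = 0.244) and -0.28 ± 0.53 at 35 weeks (limma adjusted p = 0.739). Vdr, the vitamin D receptor, fell by 0.21 at 26 weeks (limma adjusted p = 0.0251) and by 0.51 at 35 weeks (limma adjusted p = 1.15e-05). The 26-week call of Vdr was lost with quantile normalization (log2 change -0.08, limma adjusted p = 0.472) and without db/m replicate 1 or 5.

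Pth1r, the parathyroid hormone receptor, fell by 0.42 and 0.36 on the log2 scale (limma adjusted p = 1.33e-08 at 26 weeks and 4.23e-06 at 35 weeks). Kl, which encodes klotho, the FGF23 co-receptor that also stabilises TRPV5 at the cell surface, fell by 0.50 and 0.76 (limma adjusted p = 2.98e-08 and 5.77e-11). Pth1r, Kl and Vdr are also expressed in the proximal tubule, whose markers were lower as given above, and the part of that segment in their values was not tested. Klk1, whose product acts on TRPV5 from the urine, was not called at either age (log2 changes 0.04 and 0.18). S100a10, which with annexin A2 carries TRPV5 and TRPV6 to the membrane, rose by 0.86 and 1.01 (limma adjusted p = 6.55e-12 and 4.25e-12), and Anxa2 rose by 0.52 and 1.03 (limma adjusted p = 0.00187 and 1.25e-06). Esr1, the oestrogen receptor alpha gene, fell by 1.14 and 1.30 (limma adjusted p = 1.88e-07 and 2.06e-07).

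**Figure D4:**
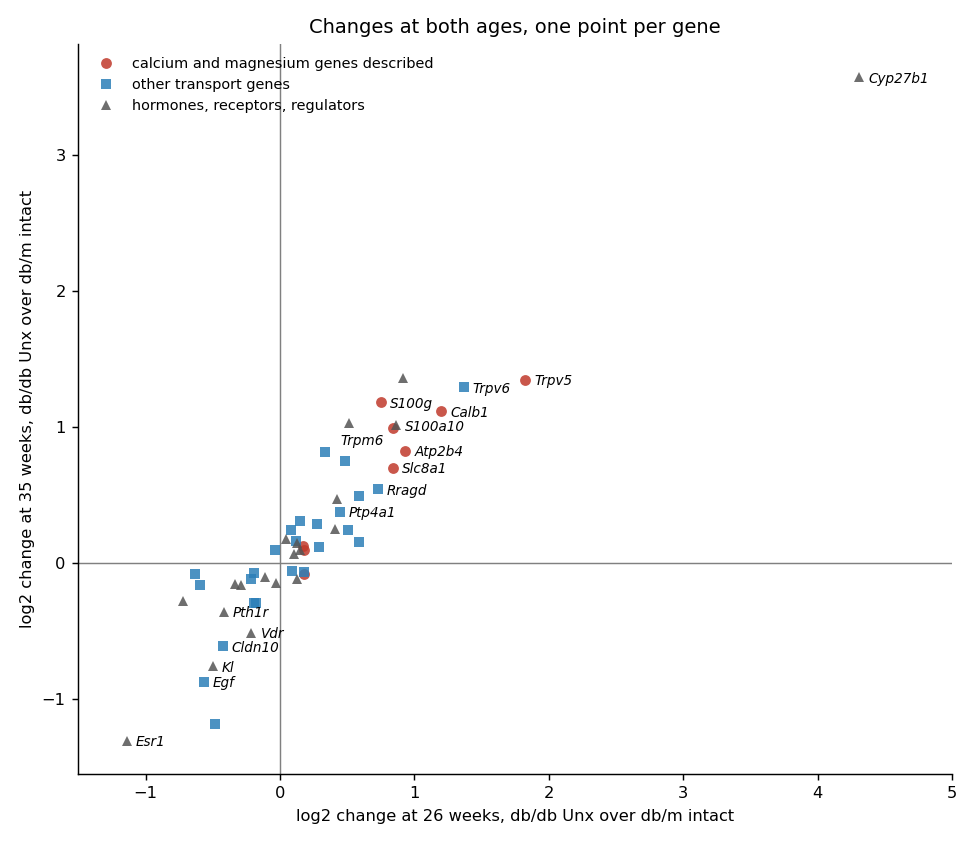
Log2 change in db/db Unx over db/m at 26 weeks (x axis) and at 35 weeks (y axis), 1 point per gene, for the 9 genes (red circles), other transport genes (blue squares) and regulators (grey triangles). The 6 called genes stand in the upper right, while regulators lie on both sides of 0, from Esr1 at -1.14 and -1.30 to Cyp27b1 at 4.31 and 3.57.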

How the data were processed

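Gene expression was measured by RNA-seq in 28 mouse kidney libraries, grouped by the strain, treatment and age in the labels. The labels do not say that each library is a separate animal. Where libraries share one, p-values measure only a spread that may be technical. RNA was extracted with TRIzol and RNeasy kits and libraries were made with Nextera XT, per the labels' protocols. Reads were processed with DRAGEN on GRCm38 (mm10), per the submitters' processing notes, and the version, the annotation, the scaling method and the use of strand were not given in the sources used here. Deposited values are a scaled signal per gene, and the deposited table held 0 value columns that belong to no sample. In each library 88.6% to 91.4% of low values (under 20 reads) lay within 0.1 of a whole multiple of 1 step, from which estimated reads were computed. No count model was run, since too few were whole. GENCODE M21 gave symbols for 14834 of 14845 identifiers.

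Genes reaching a value of 1 in 5 or more libraries were kept (13495). limma 3.58.1 in R 4.3.3 was fitted to log2(value + 1) with 4 group means, 1 shared spread, a mean-variance trend and robust moderation. All tests were two-sided. Among the 14 distal markers are Slc12a3, Wnk4, Klhl3, Emx1, Sall3, Kcnj10, Kcnj16, Klk1, Hsd11b2, Scnn1a, Scnn1b, Scnn1g and Kcnj1, and 1 further marker is not reported here by name. Klk1, Kcnj10 and Wnk4 stand in a pathway list as well. Kcnj1 is also among the thick ascending limb markers, so these marker lists are not independent. The thick ascending limb markers Umod, Cldn16 and Cldn19 are also in the list of other calcium and magnesium transport genes. Exact permutation tests of levels relative to the 14 distal markers enumerated all assignments of libraries, and correlations used 100000 permutations. The scripts were tested on simulated data. The members and lists were chosen with earlier results of these data known. From each pathway list the 5 called genes with the smallest adjusted p in either db/db Unx against db/m comparison were named, with Trpv6, Trpm7, Vdr, Pth1r, Kl, Egf and Slc12a3 beside the members. Cldn16, Cldn19, Cyp24a1, Klk1, Anxa2 and Kcnj10 were named after their values were seen. Alternatives were other pseudocounts (0.1 and 5), filters, normalizations, moderation, a replicate block, the groups of 1 comparison alone, distal convoluted or connecting tubule markers alone and left-out libraries. Calls among marker lists not described in the text were 2 higher and 1 lower of 5 principal cell markers, 3 higher and 1 lower of 7 intercalated cell markers, 0 higher and 2 lower of 5 endothelial markers and 0 higher and 1 lower of 4 leukocyte markers at 26 weeks, and 1 and 1, 1 and 2, 0 and 2, and 1 and 0 at 35 weeks. None of the 1 skeletal muscle and 2 adrenal markers tested was called. The single adipocyte marker in the table fell under the filter.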

Additional observations from a re-analysis of the deposited data

Results flagged for a closer look

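In each of the 27 sets of 4 to 10 libraries (9 genes in 3 groups), the highest and lowest library was checked for a gap to its neighbour that is large against the whole range. Chance gives such a gap in about 1 in 20 sets, and it was found in 3 of 27. S100g in db/m at 35 weeks had its highest value of 517 in replicate 1. Trpm6 in db/m at 26 weeks had its lowest value of 2.60 in replicate 4. Atp2b1 in db/db Unx at 35 weeks had its highest value of 81.2 in replicate 1. All are scaled reads.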

How the results depend on the processing

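The 6 genes called higher in db/db Unx at both ages kept direction and call under all 282 alternative values computed for them, with a highest adjusted p of 0.00291. The counts for age were less stable. For 35 against 26 weeks in db/db Unx, the count of called members (1) was 0 with quantile normalization, plain moderation, a replicate block, the 2 groups alone, or without db/db Unx 35-week replicates 3, 5 and 6, and 0 to 2 over single leave-outs. The count over all genes (1526) was 483 with the replicate block, 8 without those 3 libraries and 630 to 1748 over single leave-outs. In db/m, the count of members (2) was 1 with a pseudocount of 5, quantile normalization, the replicate block or the 2 groups alone, and 1 to 2 over single leave-outs, and the count over all genes (999) was 578 to 1140. Genes whose change differed between the ages (74) were 41 with plain moderation, 29 with the replicate block, 0 without the 3 libraries and 7 to 249 over single leave-outs. At 35 weeks, genes called in db/db Unx over db/m (4357) were 2408 without the 3 libraries, where fewer samples entered. Members called relative to the distal markers, in either direction, were 5 to 9 at 26 weeks and 6 to 7 at 35 weeks over single leave-outs. The share of all genes called in that test was not computed. Some values that never passed changed sign. Without the 3 libraries the log2 difference between the ages was 0.0544 for Pvalb, 0.0579 for Atp2b1 and 0.0303 for Atp2b4. Over single leave-outs it ran from -0.175 to 0.0189 for Pvalb and from -0.111 to 0.0064 for Atp2b1. The age change ran from -0.115 to 0.0112 for S100g in db/db Unx and from -0.113 to 0.161 for Trpm6 in db/m. Where no count of samples is named, the cause was not tested. Same-numbered libraries did not deviate together over the genes tested (30 pairs, r from -0.135 to 0.084). The block is therefore given only here, although such a check cannot exclude a weak pairing by number. Depth limits Trpv5 and Trpm6 most, at as few as 48 and 62 reads in a library.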
